A study of Sus scrofa with 48 samples.

Results

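Transcript levels of the growth hormone and insulin-like growth factor (IGF) axis were followed in the subcutaneous adipose tissue (SCAT) of 48 pigs with 10 genes, which were GHR, IGF1, IGF2, IGF1R, IGF2R, IGFBP2, IGFBP3, IGFBP4, IGFBP5 and IGFBP6. A probe was taken as a member when the array files named it for 1 of these genes, and when the scanner software rated its spot well above background in 9 or more of the 12 pigs of some group. All 43 probes named for the 10 genes passed, out of 44356 probes that passed on the whole array. They were 6 probes for GHR, 4 for IGF1, 8 for IGF2, 3 for IGF1R, 7 for IGF2R, 4 for IGFBP2, 2 for IGFBP3, 3 for IGFBP4, 2 for IGFBP5 and 4 for IGFBP6. The pigs were Large White barrows (castrated males) aged 132 days, from a line selected for low residual feed intake (low RFI, labelled RFIneg) or from a line selected for high RFI (RFIpl), RFI being the feed eaten beyond the feed predicted for a pig's growth. Both lines ate to appetite, either a diet rich in fat and fiber (HF) or a low-fat, low-fiber diet rich in starch (LF). Line and diet crossed in full, with 12 pigs and 1 array a pig for either line on either diet. The diets differed in fat, fiber and starch together, so that no single nutrient is compared here. The paper reports that HF pigs also ate less and ended lighter and leaner than LF pigs. Diet composition is thus not separated from intake, weight and fatness.

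Growth hormone from the pituitary acts through its receptor, GHR, and the kinase JAK2 on the transcription factors STAT5A and STAT5B, which raise IGF1 in liver and in other tissues, adipose tissue included. IGF1 and IGF2 signal through the receptor kinase IGF1R, whereas IGF2R, which also carries lysosomal enzymes to lysosomes, takes up IGF2 and leads it to breakdown. IGF-binding proteins hold the IGF in blood and tissue, extend its life or keep it from the receptor, and release it when proteases cut them. In adipose tissue growth hormone is known to oppose fat storage, and IGF to favour the growth of fat cell precursors.

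Each probe is a single strand of 60 bases. Most of the sequences shown come from probes that share bases with another probe of the gene, whose values are not separate evidence. The others belong to probes called for diet. The probes of IGFBP3, O12810 and A_72_P165666, have the following 30 bases in common, given in capitals. The probe of IGFBP5 that moved most with diet, A_72_P146706, and the probe of IGF2R that passed the test, A_72_P704524, are given whole. The probes A_72_P445023 and A_72_P490952 of IGF2R overlap in the 28 bases in capitals, and the probes A_72_P537638 and A_72_P537644 of IGF2 in 38 bases, also in capitals. The last sequence was printed on the array for IGF2 under both A_72_P544532 and A_72_P414438.
IGFBP3, both probes: TCAAATATGCCTTATTTTGCACAAAAGACT
IGFBP5 A_72_P146706: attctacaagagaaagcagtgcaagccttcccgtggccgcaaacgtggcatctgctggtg
IGF2R A_72_P704524: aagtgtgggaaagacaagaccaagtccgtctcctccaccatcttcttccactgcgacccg
IGF2R A_72_P445023: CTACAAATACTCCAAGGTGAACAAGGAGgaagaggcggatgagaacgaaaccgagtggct
IGF2R A_72_P490952: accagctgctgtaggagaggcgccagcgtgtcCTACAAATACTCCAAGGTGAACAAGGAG
IGF2 A_72_P537638: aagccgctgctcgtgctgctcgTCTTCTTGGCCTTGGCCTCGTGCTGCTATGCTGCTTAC
IGF2 A_72_P537644: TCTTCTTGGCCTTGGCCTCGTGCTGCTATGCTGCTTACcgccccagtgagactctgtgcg
IGF2 A_72_P544532 and A_72_P414438: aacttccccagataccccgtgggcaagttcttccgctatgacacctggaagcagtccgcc

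Levels below are log2 brightness minus the median of the array, so that 0 is the median kept probe of that array, and a difference of levels is a log2 fold change. A call needed 3 limits to be met in limma's two-sided test: raw p below 0.01, more than 1.1-fold change, and p below 0.08 after Benjamini-Hochberg adjustment across all 44356 probes. Between 62.18% and 81.87% of all probes of an array were well above background. Each of the 6 slides held 8 arrays, 2 of each group, and 3 slides were scanned on each of 2 dates, so that diet and line were balanced over slides and dates. The array farthest from its group over all probes was LF high RFI pig 12, with a root mean square deviation of 0.56 against a median of 0.37 and a second highest of 0.53. It was kept, and calls that it alters are given with and without it. That the tissue was adipose was borne out by 9 measured adipocyte markers, which do not test the fat depot. Their levels lay between 6.13 for DGAT2, an enzyme of triglyceride synthesis, and 9.74 for the fatty acid carrier FABP4.

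The HF diet was accompanied by higher IGFBP3 and IGFBP5 at every probe of these genes, and by lower IGF2R at all 7 of its probes, of which 1 was called. Diet was called for 5 of the 43 probes, 4 of them higher and 1 lower under HF. Of all 44356 probes 13.1% were called for diet, 5.61% as higher and 7.44% as lower, so that the 11.6% of members called lay near the share of the whole array. Counted once per gene at its brightest probe, 2 of the 10 genes were called, IGFBP3 and IGFBP5, beside 12.7% of all 11075 genes. The median difference over the member probes was -0.02, and over all probes it was -0.02 as well. At an unadjusted p under 0.05 there were 9 member probes, while 25.53% of all probes lay under it. In whole tissue, fewer or more cells of a type and less or more RNA per cell cannot be told apart, for these and all following results.

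**Figure D1:**
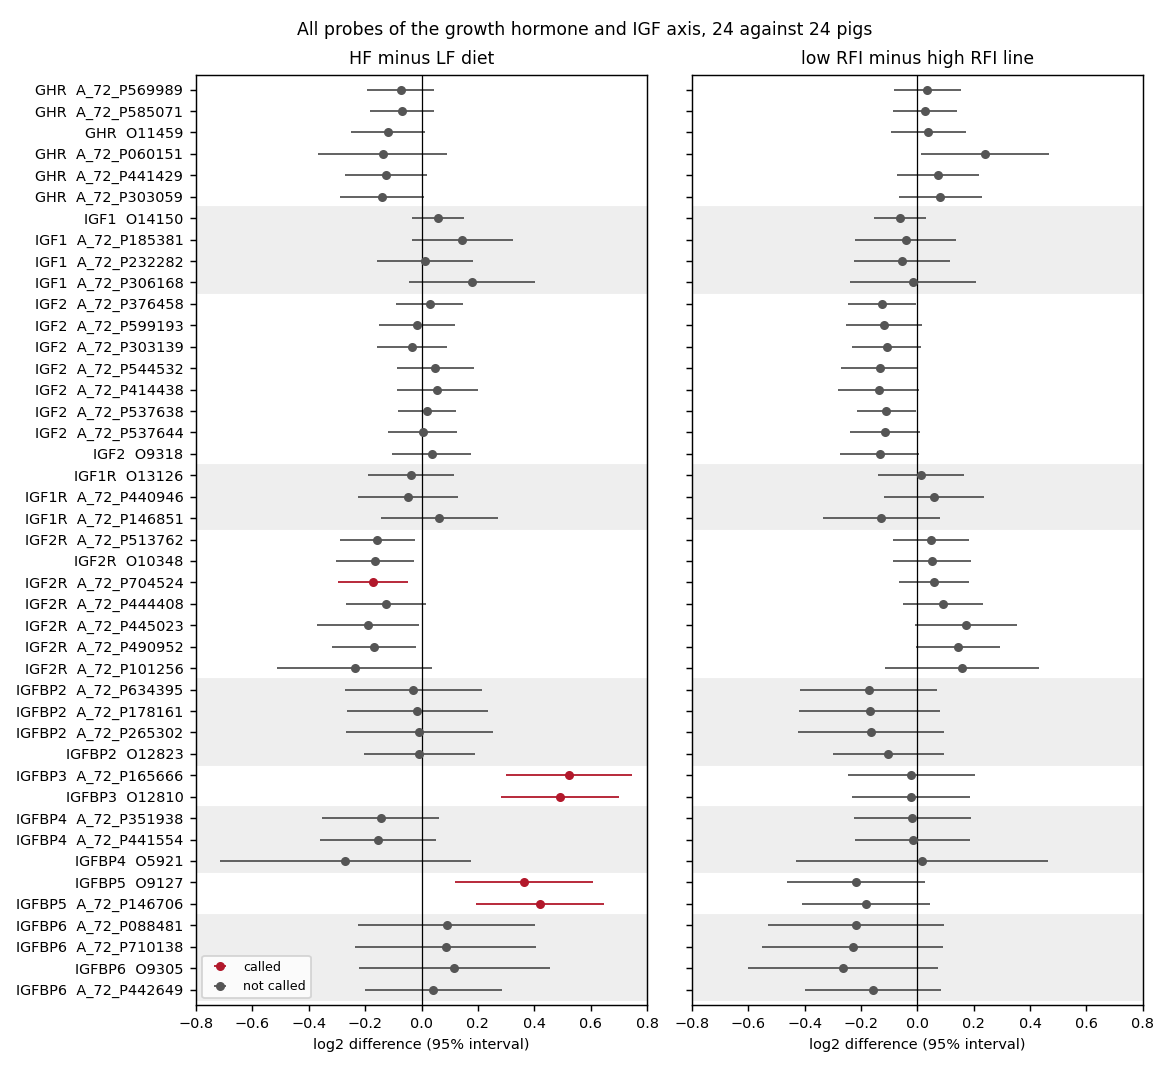
Differences in level (log2) with 95% intervals for each of the 43 probes, HF minus LF diet on the left and low minus high RFI line on the right, each between 24 and 24 pigs; genes are set apart by shading. The 5 called probes, in red, belong to IGFBP3, IGFBP5 and IGF2R, and no probe was called by line.

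IGFBP3 is the main carrier of IGF in blood, where it forms a complex with the acid-labile subunit. At the brighter probe, A_72_P165666, the level in HF low RFI pigs had its lowest value at -0.38, its median at 0.02 and its highest at 1.11 (0.11 ± 0.46, mean and SD, n = 12). HF high RFI pigs lay between -0.38 and 0.62 with a median of 0.28 (0.19 ± 0.33). LF low RFI pigs lay between -0.88 and 0.15 with a median of -0.35 (-0.35 ± 0.29). LF high RFI pigs lay between -1.09 and 0.49 with a median of -0.36 (-0.39 ± 0.47). The diets overlapped, but 22 of the 24 HF pigs lay above the mean of the LF pigs and 1 of the 24 LF pigs above the mean of the HF pigs. The difference between diets was 0.52 ± 0.11 (SE), a fold change of 1.44 with an adjusted p of 0.00146 (limma, 95% interval 0.30 to 0.75). At O12810, which shares 30 bases with the former, it was 0.49 ± 0.10 (adjusted p = 0.00125, limma), and the probes followed each other over pigs of a group with r = 0.93 (48 pigs), so that they count as one measurement.

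Ordered by mean IGFBP3 level, high RFI pigs came first and low RFI pigs next under HF, followed under LF by low RFI and then high RFI pigs. Neighbours within a diet did not differ beyond their spread at A_72_P165666 (-0.08 ± 0.16 between the lines under HF, 0.03 ± 0.16 under LF, low minus high RFI, both with a limma adjusted p of 0.9998). The step in the middle, HF against LF in low RFI pigs, was 0.47 ± 0.16 and was not called (raw p = 0.00486, limma adjusted p = 0.112). In high RFI pigs the diet difference was 0.58 ± 0.16 (limma adjusted p = 0.0572), and both IGFBP3 probes were called. That made 2 of 43 member probes, or 4.65%, beside 1.66% of all probes in high RFI pigs. These 2 probes count as 1 measurement, and at the brightest probes 1 of the 10 genes was called. In low RFI pigs no member was called, where 3.04% of all probes were. There 5 members had an unadjusted p under 0.05, as had 15.06% of all probes. The diet differences of the lines were not shown to differ from each other, since the interaction at A_72_P165666 was -0.11 ± 0.22 (limma adjusted p = 1.0).

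IGFBP5 binds IGF in the extracellular matrix and is made by many mesenchymal cells. At A_72_P146706, whose 60 bases are given above, HF low RFI pigs lay between 3.09 and 4.42 with a median of 3.70 (3.77 ± 0.37, mean and SD, n = 12). HF high RFI pigs lay between 3.51 and 4.67 with a median of 3.90 (3.91 ± 0.32). LF low RFI pigs lay between 2.68 and 3.82 with a median of 3.37 (3.31 ± 0.39). LF high RFI pigs lay between 2.23 and 4.07 with a median of 3.71 (3.54 ± 0.51). All but 1 HF pig, 23 of 24, exceeded the mean of the LF pigs, while the highest LF pigs reached well into the HF range. Under HF the level was higher by 0.42 ± 0.11 (SE, 1.34-fold, limma adjusted p = 0.0109, 95% interval 0.19 to 0.65). The brighter probe O9127, which shares no long stretch with it, gave 0.36 ± 0.12 (limma adjusted p = 0.0433), and the probes correlated with r = 0.85 over 48 pigs.

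The order of the IGFBP5 groups at O9127 was HF high RFI at 5.24 ± 0.32 (SD, n = 12), HF low RFI at 5.13 ± 0.42, LF high RFI at 4.98 ± 0.52 and LF low RFI at 4.66 ± 0.47. No step between neighbours passed the test. They were 0.12 between the lines under HF, 0.15 between HF low RFI and LF high RFI, and 0.32 between the lines under LF, each with an SE of 0.17. Diet differed by 0.46 ± 0.17 in low RFI and by 0.26 ± 0.17 in high RFI pigs (limma adjusted p = 0.154 and 0.524), and the interaction was not called (0.20 ± 0.24, limma adjusted p = 1.0). IGFBP5 lies next to IGFBP2 in the RefSeq gene table of assembly Sscrofa11.1. The 4 probes of this neighbour differed between diets by -0.03 to -0.01.

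**Figure D2:**
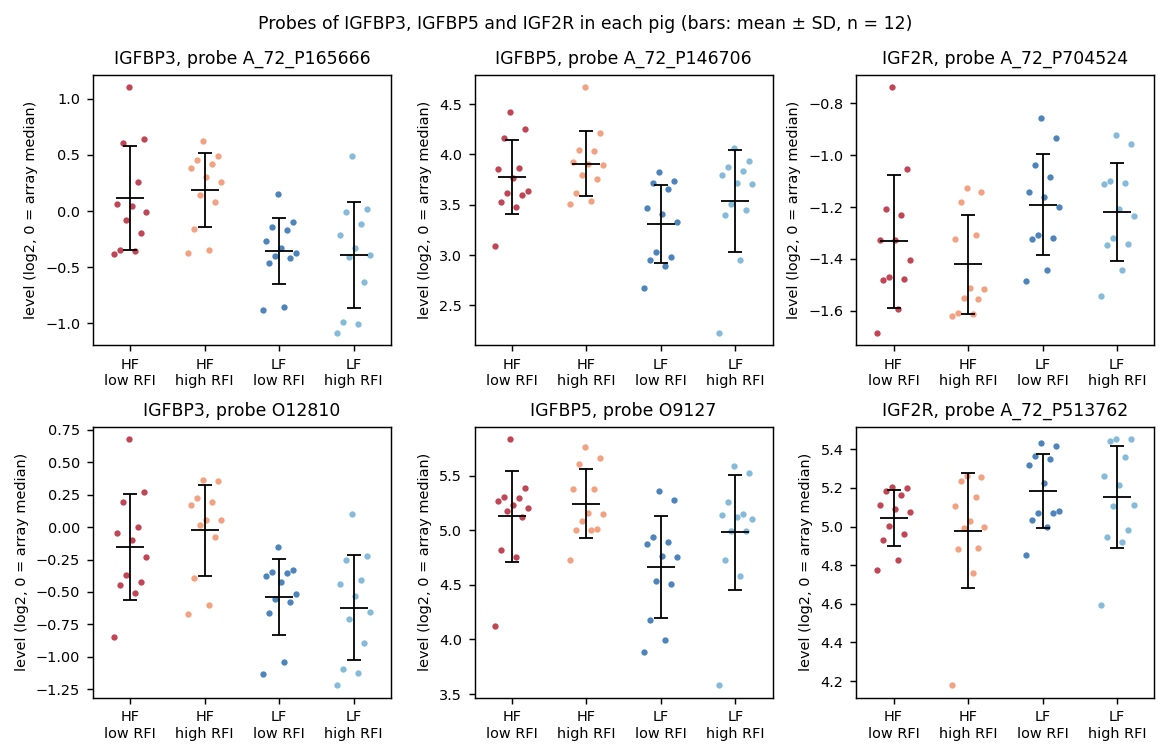
Level of 6 probes in each pig (log2 relative to the array median, vertical axis) in the 4 groups (horizontal axis), with points for pigs and bars for the mean ± SD of 12 pigs. For IGFBP3 and IGFBP5 most HF points lie above the LF mean, whereas for IGF2R most lie below it, and the groups overlap in every panel.

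The other binding proteins did not pass the test for diet. IGFBP4, an inhibitor of IGF action that the protease PAPPA cuts, was lower under HF at its 3 probes by 0.14 to 0.27 on the log2 scale, without a call (brightest probe -0.14 ± 0.10, 95% interval -0.35 to 0.06, limma adjusted p = 0.398). IGFBP6, which binds IGF2 more tightly than IGF1, differed by 0.04 to 0.12 at its 4 probes (brightest probe 0.09 ± 0.16, 95% interval -0.22 to 0.40, limma adjusted p = 0.770). Over the LF pigs this gene ran from 5.52 to 8.60, the latter in LF high RFI pig 12, with the next highest pig at 7.58. IGFBP2, a carrier that preadipocytes and other cells release, differed by -0.03 ± 0.12 at its brightest probe (95% interval -0.27 to 0.21, limma adjusted p = 0.911), and its sign turned to 0.012 with arrays scaled to their 75th percentile. Of its 4 probes, 3 overlap each other in at least 51 bases.

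Among the ligands, IGF1 ranged at its brightest probe O14150 from 2.86 to 3.44 under HF and from 2.68 to 3.38 under LF. The difference was 0.06 ± 0.05 (95% interval -0.03 to 0.15, limma adjusted p = 0.448). The 4 IGF1 probes differed by 0.01 to 0.18, none called. For IGF2, the ligand that IGF2R clears, the brightest probe A_72_P376458 lay at 7.45 ± 0.17 under HF and 7.43 ± 0.25 under LF (SD, n = 24), a difference of 0.03 ± 0.06 (95% interval -0.09 to 0.15, limma adjusted p = 0.807). Its 8 probes differed by -0.03 to 0.06 between diets. The probes with the same 60 bases, A_72_P544532 and A_72_P414438, differed from each other by 0.04 ± 0.05 (SD over 48 arrays). The other pair of members with the same 60 bases, A_72_P513762 and O10348 of IGF2R, differed by 0.13 ± 0.08.

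Of the receptors, only IGF2R had a called probe. At GHR, the 6 probes were lower under HF by 0.07 to 0.14, and none was called. The brightest, A_72_P569989, had 6.32 ± 0.17 under HF and 6.39 ± 0.24 under LF (SD, n = 24), a difference of -0.07 ± 0.06 (95% interval -0.19 to 0.05, limma adjusted p = 0.465). The 6 GHR probes followed each other over pigs with r between 0.27 and 0.96, the latter for A_72_P441429 and A_72_P303059, which share 45 bases. IGF1R, the signalling receptor, lay at 2.56 at probe O13126, well above background in all 48 pigs, and at -2.99 and -3.52 at the other probes, where 1 or 2 arrays of the HF diet fell below the background limit. Its diet differences lay between -0.05 and 0.06 (brightest probe -0.04 ± 0.08, 95% interval -0.19 to 0.12, limma adjusted p = 0.809).

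IGF2R was lower under HF at all 7 probes, by 0.13 to 0.24, and 1 of them was called. At that probe, A_72_P704524, HF low RFI pigs lay between -1.69 and -0.74 with a median of -1.37 (-1.33 ± 0.26, mean and SD, n = 12). HF high RFI pigs lay between -1.62 and -1.13 with a median of -1.51 (-1.42 ± 0.19), LF low RFI pigs between -1.49 and -0.86 with a median of -1.18 (-1.19 ± 0.19), and LF high RFI pigs between -1.54 and -0.92 with a median of -1.22 (-1.22 ± 0.19). Of the LF pigs, 20 of 24 lay above the HF mean. The difference was -0.17 ± 0.06 (limma adjusted p = 0.0640, 95% interval -0.30 to -0.05), and it was no longer called under several other treatments of the data, such as arrays scaled to their 75th percentile (-0.13, limma adjusted p = 0.241). Without LF high RFI pig 12 it was -0.16 (limma adjusted p = 0.0835), short of a call, while the brightest probe A_72_P513762 then had -0.18 and was called (limma adjusted p = 0.0466). With that pig the brightest probe differed by -0.16 ± 0.07 and was not called (limma adjusted p = 0.118), though with slide as a block all 48 pigs gave a call there too (-0.16 ± 0.06, limma adjusted p = 0.0532). With the mean of the 7 probes as the value of the gene the difference was -0.17 ± 0.04, with a limma adjusted p of 0.00239. That mean takes together probes that run against each other over pigs, as given next, so that its SE is not the error of 1 level.

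The probes of IGF2R did not read 1 quantity. Over pigs of the same group the bright A_72_P513762 and O10348, whose 60 bases are identical, followed each other with r = 0.94. The 4 dimmer probes A_72_P704524, A_72_P444408, A_72_P445023 and A_72_P490952 also went together, with r between 0.48 and 0.80. Between these sets r was negative in all 8 pairs, from -0.51 to -0.20, and A_72_P101256 followed neither set. The range within the other genes with more than 3 probes was above 0 throughout, as with the IGF2 probes (r from 0.68 to 0.98) and the IGFBP6 probes (0.94 to 0.995). These correlations are across 48 arrays with group means removed and are given as a description.

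**Figure D3:**
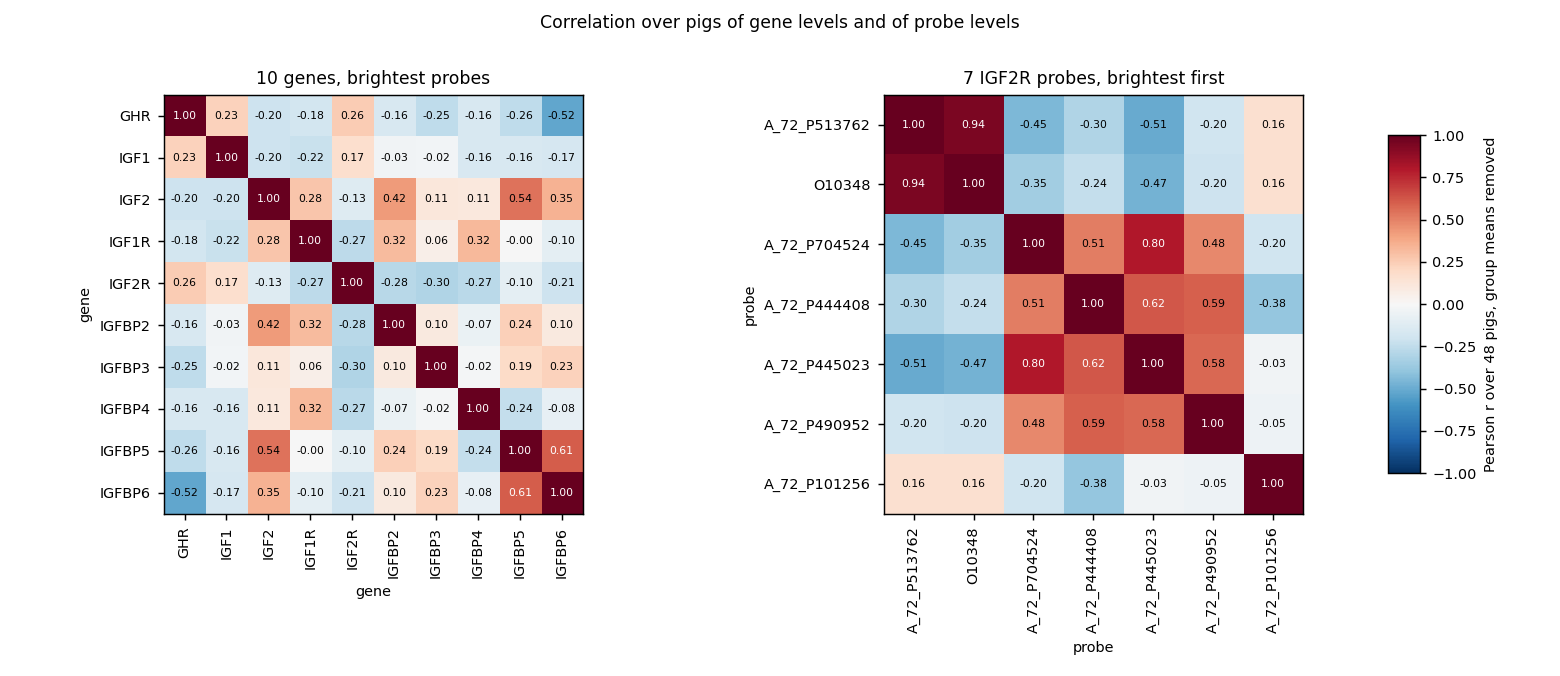
Pearson r over 48 pigs with group means removed, between the brightest probes of the 10 genes on the left and between the 7 IGF2R probes on the right, blue for negative and red for positive. IGFBP5 and IGFBP6 share the highest r among the genes, and the upper left pair of IGF2R probes runs against the next 4.

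Neither line nor the interaction was called for any member probe. By line 1.37% of all probes were called and none of the 43 members, in limma and in the two-way analysis of variance alike, with 3 members at an unadjusted p under 0.05, where 10.37% of all probes lay. These were A_72_P376458 and A_72_P537638 of IGF2 and A_72_P060151 of GHR. All 8 IGF2 probes were lower in low RFI pigs, by 0.11 to 0.14, with raw p between 0.0382 and 0.0847 and limma adjusted p between 0.427 and 0.589. At the brightest, low RFI pigs had 7.38 ± 0.20 and high RFI pigs 7.50 ± 0.21 (SD, n = 24), and 18 of 24 high RFI pigs lay above the low RFI mean. The 6 GHR probes were higher in low RFI pigs by 0.03 to 0.24, of which 0.24 ± 0.11 at A_72_P060151 had a limma adjusted p of 0.433. IGFBP5 was lower in low RFI pigs by 0.18 and 0.22, and IGFBP6 by 0.16 to 0.26, none called. For IGFBP3 the line difference was -0.02 ± 0.11 (95% interval -0.25 to 0.20). The interaction was called for 0% of all probes and for no member, in limma and in the analysis of variance, and no member reached an unadjusted p under 0.05. The smallest was 0.116, at an IGF2 probe.

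The diet difference of IGFBP3 and IGFBP5 was present on every slide. With 4 HF and 4 LF pigs on each, A_72_P165666 was higher under HF on all 6 slides, by 0.10 to 0.87, and O9127 by 0.04 to 0.86. A_72_P704524 of IGF2R was lower on all 6 slides, by 0.09 to 0.25. Within the 24 arrays of the first scan date IGFBP3 differed by 0.59 ± 0.17 and within those of the second by 0.46 ± 0.15, and IGFBP5 at O9127 by 0.26 ± 0.11 and 0.46 ± 0.21. The dates gave opposite signs for 4 genes without a call, which were IGF1R (0.12 and -0.20), IGF2 (-0.08 and 0.14), IGFBP2 (-0.23 and 0.17) and IGFBP6 (-0.02 and 0.20).

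**Figure D4:**
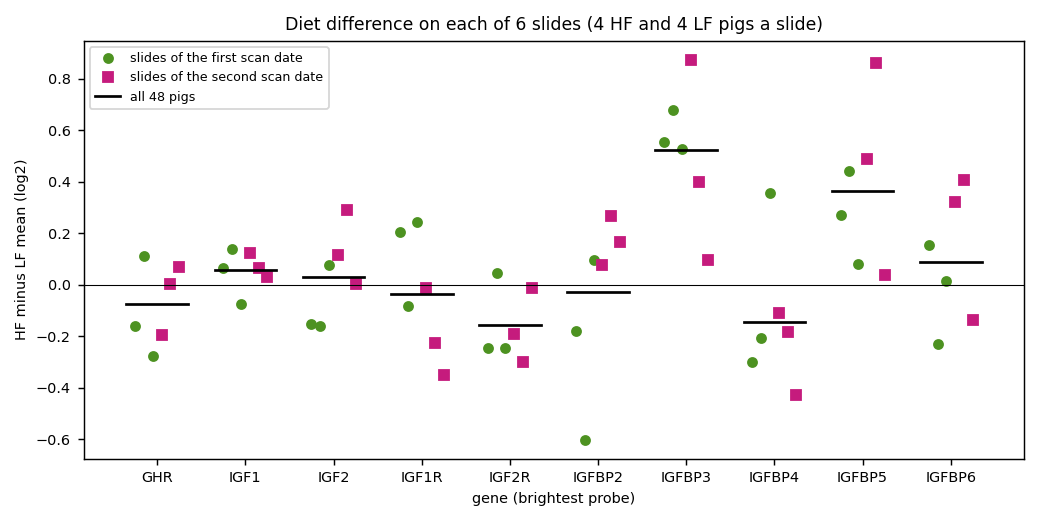
HF minus LF difference in mean level (log2, vertical axis) on each of the 6 slides for the brightest probe of each gene, with circles and squares for the scan dates and a line for all 48 pigs. The 6 points of IGFBP3 and of IGFBP5 lie above 0, and those of the other genes lie on both sides of it.

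Levels of the members were also compared between pigs, with group means removed so that diet and line took no part. Of 45 pairs of genes, 4 had an adjusted p under 0.05 (Pearson, 100000 permutations, two-sided, Benjamini-Hochberg over the pairs). IGFBP5 and IGFBP6 went together over pigs, with r = 0.61 (permutation p = 1e-05, the smallest that the permutations can give, adjusted p = 0.00045) and Spearman rho = 0.60 (adjusted p = 0.0014). Without the 2 pigs farthest from the IGFBP5 median r was 0.53, and within the scan dates it was 0.33 and 0.75. GHR and IGFBP6 ran against each other (r = -0.52, permutation p = 0.0002, adjusted p = 0.0030, rho = -0.41 with adjusted p = 0.075), with -0.37 without the 2 farthest pigs, -0.41 without LF high RFI pig 12, and -0.51 and -0.55 within the dates. IGF2 and IGFBP5 had r = 0.54 (permutation p = 0.0001, adjusted p = 0.0023, rho = 0.40 with adjusted p = 0.075), but -0.16 in the first date and 0.88 in the second, so that this relation did not hold within both. IGF2 and IGFBP2 had r = 0.42 (permutation p = 0.0026, adjusted p = 0.029, rho = 0.38 with adjusted p = 0.082), 0.40 without the 2 farthest pigs, and 0.41 and 0.44 within the dates. IGFBP3 and IGFBP5, both higher under HF, had r = 0.19 within groups (permutation adjusted p = 0.36).

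The genes whose brightest probe was most like IGFBP5 over the 48 arrays, group means removed, were ASB9 (r = 0.80), MFAP2, a protein of elastic microfibrils (0.78), and PID1 (0.78). Of these, ASB9 differed between diets by 0.33 ± 0.11 (limma adjusted p = 0.0499) and PID1 by 0.38 ± 0.12 (0.0332), and both were called. For IGFBP3 the most like were CLSTN1 (r = 0.53), GAS6, a ligand of the TAM receptor kinases (0.52), and PLPP2, a lipid phosphatase (0.49), none called for diet. These 6 were picked as the highest of all 11075 genes and are a description.

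Markers of other cell types moved with some of these genes. Of 10 stromal cell markers, 9 were higher under HF and 2 were called, the receptor PDGFRA (0.31 ± 0.11, limma adjusted p = 0.0661) and the collagen chain COL1A2 (0.36 ± 0.13, limma adjusted p = 0.0636), against a share of 12.7% over all genes. The median difference of the stromal list was 0.18, against -0.04 for all genes. The mean level of the list on an array ran from 5.57 to 6.30 in HF low RFI, 5.75 to 6.46 in HF high RFI, 5.30 to 6.19 in LF low RFI and 5.35 to 6.74 in LF high RFI pigs. With group means removed this mean correlated with IGFBP5 (r = 0.72, permutation p = 1e-05, adjusted p = 0.0001, rho = 0.69 with adjusted p = 0.0001). Without the 2 pigs farthest from the median of the list it was 0.64, and within the scan dates 0.36 and 0.83. With IGFBP6 it had r = 0.78 (permutation p = 1e-05, adjusted p = 0.0001, rho = 0.63 with adjusted p = 0.0001), 0.70 without the 2 farthest pigs, and 0.55 and 0.90 within the dates. With IGFBP3 it had r = 0.32 (permutation p = 0.028, adjusted p = 0.051). The stromal list holds CFD, which adipocytes make too, and without it r was 0.71 for IGFBP5 and 0.78 for IGFBP6. The part of stromal cells in the diet difference of IGFBP5 was not tested.

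Of 9 adipocyte markers 6 were lower under HF with a median of -0.09, and 1 was called, the lipid droplet protein CIDEA (-0.36 ± 0.10, limma adjusted p = 0.0149). The mean of the list ran from 7.78 to 8.16, 7.65 to 8.202, 7.51 to 8.23 and 7.54 to 8.26 in the groups in the same order. GHR correlated with it (r = 0.53, permutation p = 0.00015, adjusted p = 0.00075, rho = 0.41 with adjusted p = 0.016), with 0.33 without the 2 farthest pigs and 0.36 and 0.59 within the dates. IGF2 ran against it (r = -0.48, permutation p = 0.00063, adjusted p = 0.0025, rho = -0.47 with adjusted p = 0.0060), with -0.43 without the 2 farthest pigs and -0.33 and -0.60 within the dates. IGFBP5 ran against the adipocyte list as well (r = -0.41, permutation p = 0.0046, adjusted p = 0.013, rho = -0.34 with adjusted p = 0.049), with -0.28 without the 2 farthest pigs and -0.20 and -0.61 within the dates. In all 20 such relations were computed, for the 10 genes and both lists, and 10 had a Pearson adjusted p under 0.05. The others of these 10 were IGF2 and GHR with the stromal list (r = 0.53 and -0.42, permutation adjusted p = 0.00075 and 0.0093) and IGFBP2, IGF2R and IGF1R with the adipocyte list (r = -0.39, 0.38 and -0.34, permutation adjusted p = 0.018, 0.019 and 0.038). Spearman's rho had an adjusted p under 0.05 for IGF2 (0.46) and IGFBP2 (-0.35), but not for GHR (-0.29), IGF2R (0.26) and IGF1R (-0.32). Without the 2 farthest pigs, in the same order as above, r was 0.41 and -0.41 for IGF2 and GHR and -0.38, 0.27 and -0.19 for IGFBP2, IGF2R and IGF1R. Without LF high RFI pig 12 the r of GHR with the stromal list was -0.30, and with the adipocyte list those of IGF2R and IGF1R were 0.28 and -0.26. The value of IGF2R is that of its brightest probe, which ran against 4 other probes of the gene. Within the first and second scan date r was 0.12 and 0.74 for IGF2, -0.21 and -0.61 for GHR, -0.35 and -0.49 for IGFBP2, 0.04 and 0.43 for IGF2R, and -0.06 and -0.46 for IGF1R. No gene of the endothelial (7 measured, median 0.02), macrophage (7, median 0.04) or lymphocyte list (6, median 0.04) was called for diet. All 9 skeletal muscle markers were lower under HF with a median of -0.20, none called, as were 4 blood cell markers with a median of -0.14, of which EPB42, a red cell membrane protein, was called (-0.26 ± 0.09, limma adjusted p = 0.0476). Both skin markers were higher, with a median of 0.43, and not called. By line no marker was called. In low RFI pigs 9 of 10 stromal markers were lower, with a median of -0.12 against 0.02 for all genes. Of the 9 adipocyte markers 7 were higher and 2 lower, with a median of 0.10. The probes of CD4 (lymphocytes), MB and MYH4 (muscle) and KRT1 (skin) did not pass the background limit.

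The partners of the axis were taken from 5 lists with 74 genes, of which 55 had a kept probe. Diet was called for 6 of these 55 (10.91%), against 12.7% of all genes, with 3 higher and 3 lower. Line was called for 1, against 1.31% of all genes. Of the hormones and the genes that govern their release 7 of 12 were measured, and none was called, while GH1, GHRH, SST, SSTR2 and H19 had probes that did not pass the background limit.

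Of 12 measured genes of GH receptor signalling, 6 were higher and 6 lower under HF, and 2 were called, both lower. CISH, a STAT5 target that dampens signalling by cytokine receptors, had -0.75 ± 0.30 under HF and -0.39 ± 0.41 under LF (SD, n = 24), and fell by 0.36 on the log2 scale (SE 0.10, limma adjusted p = 0.0198). Only 3 of 24 HF pigs exceeded the LF mean. PTPN1, a phosphatase that acts on JAK2 and on the insulin receptor, differed by -0.19 ± 0.07 (limma adjusted p = 0.0661), and its other probes by -0.19 to -0.13. STAT5A was the gene called by line, higher in low RFI pigs by 0.23 ± 0.06 (limma adjusted p = 0.0566), and did not differ by diet beyond its spread (0.01 ± 0.06, limma adjusted p = 0.937). The median diet difference of this list was -0.00056.

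Of 11 measured carriers and proteases, 4 were higher and 7 lower under HF, with a median of -0.08. In either direction 1 was called. HTRA1, a secreted serine protease that cuts IGFBP5 among others, rose under HF from 5.42 ± 0.45 to 5.73 ± 0.36 (0.31 ± 0.11, limma adjusted p = 0.0637), and 20 of 24 HF pigs lay above the LF mean. CTSD, the lysosomal protease cathepsin D and a cargo of IGF2R, fell from 5.36 ± 0.23 to 5.08 ± 0.16 (SD, n = 24), by 0.29 on the log2 scale (SE 0.06, limma adjusted p = 0.00063). No HF pig reached the LF mean, and 22 of 24 LF pigs lay above the HF mean. The other probes of CTSD differed by -0.37 and -0.29.

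Of 19 measured genes of IGF and insulin receptor signalling, 8 were higher and 11 lower under HF, with a median of -0.04. Only 1 was called, as higher. It was IRS1, the docking protein of the IGF1 and insulin receptors, at 3.51 ± 0.36 under HF and 3.15 ± 0.24 under LF (0.35 ± 0.09, limma adjusted p = 0.00524). The other IRS1 probes differed by -0.02 to 0.20, so that the probes did not give 1 size. Of 6 measured genes of RNA binding and transcription, 3 were higher and 3 lower under HF. Only PLAGL1 was called, an imprinted zinc finger factor, with 1.13 ± 0.21 under HF and 0.86 ± 0.29 under LF (0.27 ± 0.07, limma adjusted p = 0.0109). The median of that list was -0.0046.

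**Figure D5:**
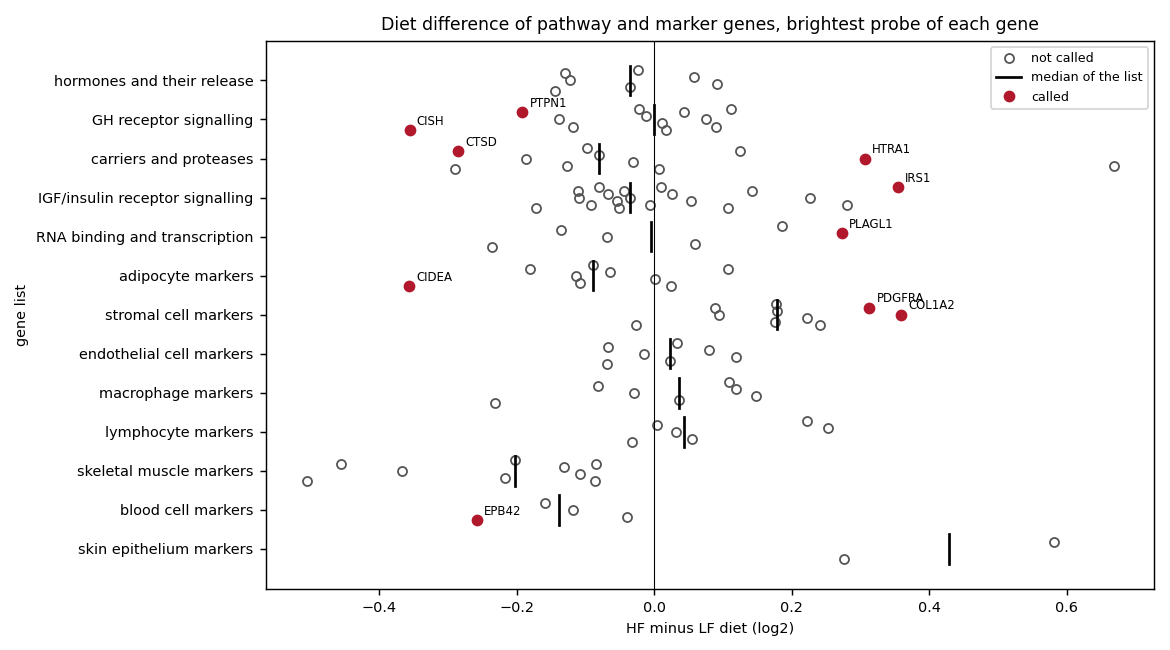
HF minus LF difference (log2, horizontal axis) of the genes of the 5 pathway lists and 8 marker lists (vertical axis), each at its brightest probe, with filled red points for called genes and a bar for the median of the list. Called genes lie on both sides of 0 among the partners of the axis, and the stromal list lies mostly to the right.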

How the data were processed

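Adipose RNA of 48 pigs, labelled with 1 dye, was hybridised by the authors to a custom pig array. Spot intensity was taken from the deposited scanner output of Agilent Feature Extraction 10.7.3.1. A second deposited file, for which the submitters' notes name R 2.10.0, holds log2 values of 38987 probes. It matched the log2 median signal, centred on the median of each array, within 4.87e-09. The build behind the probes is not given in the sources used here, so no positions are given.

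Control spots were left out, 227 flagged spots were set to missing (0 among the members), and no spot was saturated. Of 60305 probes, 44356 were well above background on at least 9 of 12 arrays of a group. The log2 processed signal was centred on each array's median. Groups and replicate numbers came from the sample titles. Genes were named from the array files and the RefSeq table of Sscrofa11.1 and represented, for gene counts, by their brightest kept probe.

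Diet, line and their interaction were fitted in 1 limma 3.58.1 model (lmFit, eBayes with a trend, R 4.3.3) in place of the study's two-way analysis of variance, which was run as an alternative. Calls needed raw p under 0.01, fold change over 1.1 and adjusted p under 0.08, the study's limits. The fit was tested on simulated data. Correlations used 100000 permutations. All members are named; of list genes, those called; and the 3 genes most like each member called at its brightest probe. The members and lists were chosen with earlier results of these data known. Alternatives were other scalings, background corrections, probe filters, blocks and weights, each scan date alone and the mean of a gene's probes. The number of arrays limits the precision.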

Additional observations from a re-analysis of the deposited data

How the results depend on the processing

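Under 16 other treatments, 1 of which leaves out an array, the count of member probes called for diet lay between 4 and 7, except with array weights, where it was 9, the additions being IGF2R probes. For line and for the interaction it was 0 in all 16. In low RFI pigs 2 probes were called with slide as a random block and 2 with array weights, in place of 0. In high RFI pigs 1 was called in place of 2 without a filter on dim probes, with array position as a block, and with background outlier flags set to missing, and 3 were called with slide as a block.

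With the 24 arrays of each scan date alone, IGFBP3 was no longer called in the second date (0.46), and IGFBP5 at O9127 neither in the first (0.26) nor in the second (0.46). The latter also missed the limit without a filter on dim probes (0.36, limma adjusted p = 0.0803), and the IGFBP3 probe O12810 was not called with background outlier flags set to missing (0.46). The IGF2R probe A_72_P513762 was called with slide as a block (-0.16), array weights (-0.17) and without LF high RFI pig 12 (-0.18). IGF2R as the mean of its 7 probes, which do not read 1 quantity, also passed (-0.17). Without that pig A_72_P704524 was no longer called (-0.16, limma adjusted p = 0.0835), and the count of called members was 6.

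Dimmer probes without a call turned sign too, such as those of IGF2. Of its 8 probes, 6 were higher under HF as reported and all 8 with 75th percentile scaling. At the brightest probe of a gene, or with the mean of its probes, signs turned only for differences that were not called. For diet these were IGF2 in the first date (-0.079), IGFBP6 in the first date (-0.020), IGF1R with 75th percentile scaling (0.0043), array weights (0.033), background flags (0.13) and the first date (0.12), and IGFBP2 with 75th percentile scaling (0.012), quantile normalization (0.0021), array position (0.0016), array weights (0.017), without LF high RFI pig 12 (0.0048) and in the second date (0.17). For line they were IGF1R with normexp correction (-0.0088), unsubtracted signal (-0.0091), the deposited table (-0.0079), the second date (-0.053) and the mean of all probes (-0.019), IGF2R (-0.051), IGFBP2 (0.080) and IGFBP4 (0.021) in the first date, IGFBP3 with array position (0.040) and array weights (0.052), and IGFBP4 without LF high RFI pig 12 (0.014). The causes were not tested. Beside the values given above, 420 values did not change their call: differences kept their sign and their side of the limit, and counts stayed within 1.5 times. Of the called probes that are not the brightest of their gene, 41 values kept sign and call and 13 lost the call with the same sign.

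The replicate numbers of the titles are shared by the groups and run in pairs along the slides, but the labels tie them to no animal or litter. Same-numbered arrays deviated from their group means with r between -0.19 and 0.45 (median 0.16, against -0.02 for other numbers). As 48 of 72 pairs, not all, were over 0.1, the numbers were not taken as pairs, although 17 of 48 arrays correlated best with their own number. Same-numbered arrays also shared a slide, and the fitted correlation of arrays within a slide was 0.157. Likeness by number therefore cannot be told apart from likeness by slide. With the replicate block 7 member probes were called for diet in place of 5, IGF2R A_72_P513762 among them (-0.16, limma adjusted p = 0.0444). The dim probes of IGF1R, other than O13126, and of IGF2R are those that signal over background limits most.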

Other observations

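A probe outside the 43, A_72_P083181, carries a transcript cluster number in place of a gene symbol in the array files and is listed as IGF1R in the study's own tables. It lay at -0.26 ± 0.32 under HF and -0.53 ± 0.28 under LF (SD, n = 24), a difference of 0.26 ± 0.08 (limma adjusted p = 0.0332), with 17 of 24 HF pigs above the LF mean. With group means removed it correlated over 48 arrays with the IGF1R probe O13126 at r = 0.22, and r was near 0 with both other named IGF1R probes (0.0039 with A_72_P146851, and smaller with A_72_P440946). The list that names it was chosen on the same pigs and is not independent evidence of its direction. Among the named IGF1R probes none was called. The paper counts IGF1R among the genes most raised by the HF diet, in the response that perirenal and subcutaneous fat had in common.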
